A study of Caenorhabditis elegans with 4 samples.

Results

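Of the 1679 binding regions in the combined list for the nuclear hormone receptor NHR-237 in Caenorhabditis elegans embryos, 205 do not have the width of 490 bp that the other 1474 share. These 205 regions, or 12.2% of the list (exact Clopper-Pearson 95% interval 10.7 to 13.9), were chosen by their deposited width alone. Of them, 196 were narrower than 490 bp, at 122 to 489 bp, and 9 were wider, at 493 to 628 bp. The widths come from the same calling as the order and the boundaries of the regions, so their relation to peak number is given as a description, with no test. Intervals over regions cover counting error only, and regions are not replicates.

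Chromatin immunoprecipitation followed by sequencing (ChIP-seq) was carried out with anti-GFP antibodies on formaldehyde-crosslinked, sonicated embryos of strain OP228, grown at 20 °C as a mixed population of males and hermaphrodites. Their genotype joins unc119(ed3) with the array wgIs228, whose contents are given as nhr-237:TY1 EGFP FLAG;unc119, so the receptor, tagged with GFP::3xFlag, comes from a bombarded transgene in a line outcrossed 3 times, and that transgene also brings unc119 into the mutant background. The series holds 2 ChIP samples and 2 input samples of this same strain and stage, and no strain without the transgene is among them. A region list was used for each ChIP sample, beside 1 combined list. The labels do not say whether the replicates are separate cultures, and whole embryos mix all embryonic cell types. The replicate 1 list held 8318 regions on nuclear chromosomes and the replicate 2 list 12682. Coordinates are on WormBase WS220, and no read counts come with the lists, so the depth behind each region is unknown.

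Nuclear hormone receptors are transcription factors with a zinc-finger DNA-binding domain and, in most members, a domain that can bind small lipophilic ligands. The nematode genome carries a greatly expanded set of them, many related to the vertebrate receptor HNF4. X is the sex chromosome of the worm, and its genes are regulated chromosome-wide in hermaphrodites by dosage compensation. In ChIP-seq, fragments pile up on both sides of a bound site, and a caller such as SPP turns each pile into a region. The IDR procedure then compares how replicates order these regions. How the deposited widths were set is not given in the sources used here.

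Regions of other width filled the top of the combined order. The deposited peak number, which fell as the deposited score rose (Spearman's rho across 1679 regions of -0.84), is used here as the rank, with smaller numbers read as better. The score is tied at its highest value for 1123 regions, so within that tie it does not bear on their order. Each of the first 63 regions had a width other than 490 bp. The first region of 490 bp was number 64, on chromosome I at 2639608 to 2640097, and only 7 regions of 490 bp stood among the first 100. Among the first 50 regions, 44 were narrower and 6 were wider, and the 0 of 50 at 490 bp allows a share of up to 6%. The share of narrower regions was 55% (44.7 to 65.0) for the second 100 numbers, 15.5% (10.8 to 21.3) for the following 200, and 1.88% (1.21 to 2.78) above 400.

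**Figure D1:**
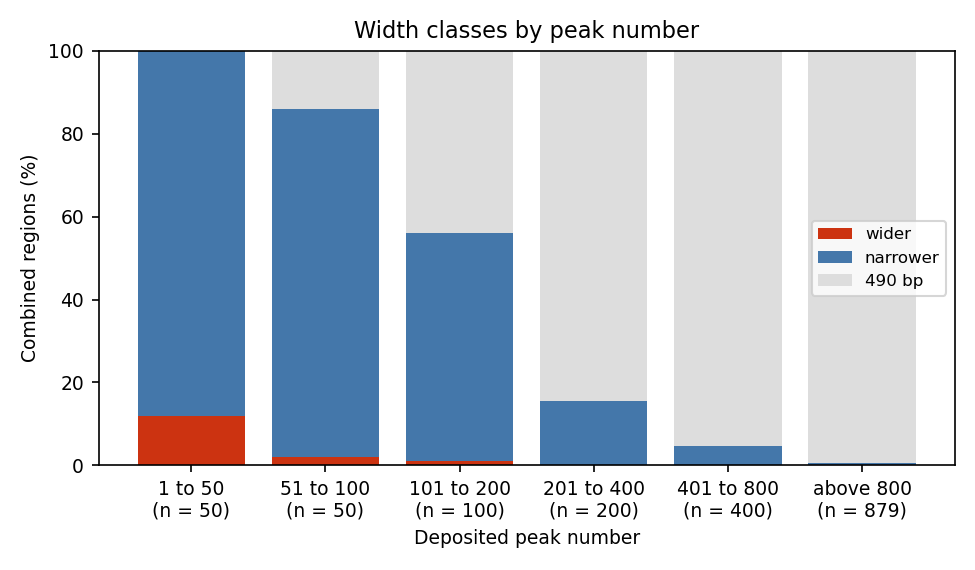
Share of combined regions (vertical axis, %) that were wider than, narrower than or exactly 490 bp, by deposited peak number (horizontal axis, with the number of regions in each bar). No region of 490 bp appears among the first 50, and 24 narrower regions lie above number 400.

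The median peak number was 116 (95% order-statistic interval 98 to 142) for narrower regions, 23 (7 to 198) for wider regions and 937.5 (898 to 977) for regions of 490 bp. Some wider regions are listed more than once, and with identical entries counted once the median for wider regions was 9.5 (5 to 24). The classes overlapped at both ends: narrower regions reached number 1495, and regions of 490 bp began at 64. The deposited score separates the classes less, because 1123 regions are tied at its highest value of 3.35. The tie held 193 of the 196 narrower regions, or 98.5% (95.6 to 99.7), each of the 9 wider regions, and 62.5% (60.0 to 65.0) of the regions of 490 bp. The 3 narrower regions below the tie stood at numbers 1144, 1272 and 1495. Either replicate list alone, taken to the same length of 1679 regions, held fewer narrower regions, 85 in replicate 1 and 113 in replicate 2. Their median peak numbers were 47 (36 to 63) and 69 (56 to 87). They made up 66% and 76% of the first 100, below the 86% (77.6 to 92.1) of the combined list.

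Among narrower regions, width fell as the peak number rose. The widths had a median of 194 bp (183 to 214) and quartiles of 151 and 247 bp, and took 123 distinct values. Width and peak number correlated across the 196 narrower regions with a Spearman's rho of -0.76, and across the 86 of them among the first 100 with a rho of -0.82. In the second 100 numbers the rho over 55 narrower regions was -0.096, and over the 31 in the following 200 numbers it was -0.13. The median width was 281 bp among the first 50 regions and 222.5 bp at 51 to 100. It was 181 bp in the second 100, 141 bp in the following 200 and 147 bp above 400, where the rho over 24 regions was -0.23. The correlation within a band was thus weaker past number 100, and the median did not fall further above 400.

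The smallest width recurred: 6 narrower regions were exactly 122 bp wide. The commonest width divided by 4 is 122.5 bp in the combined list, 116 bp in replicate 1 and 117.5 bp in replicate 2, and the narrowest deposited regions of these lists were 122, 116 and 118 bp wide. The best-ranked of the 122 bp regions lay on X at 14560238 to 14560359, with number 109, followed by III 8800018 to 8800139 with number 224 and III 3068044 to 3068165 with number 309. The counterparts of these 3 regions had the commonest width of 464 bp in replicate 1 and of 470 bp in replicate 2.

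**Figure D2:**
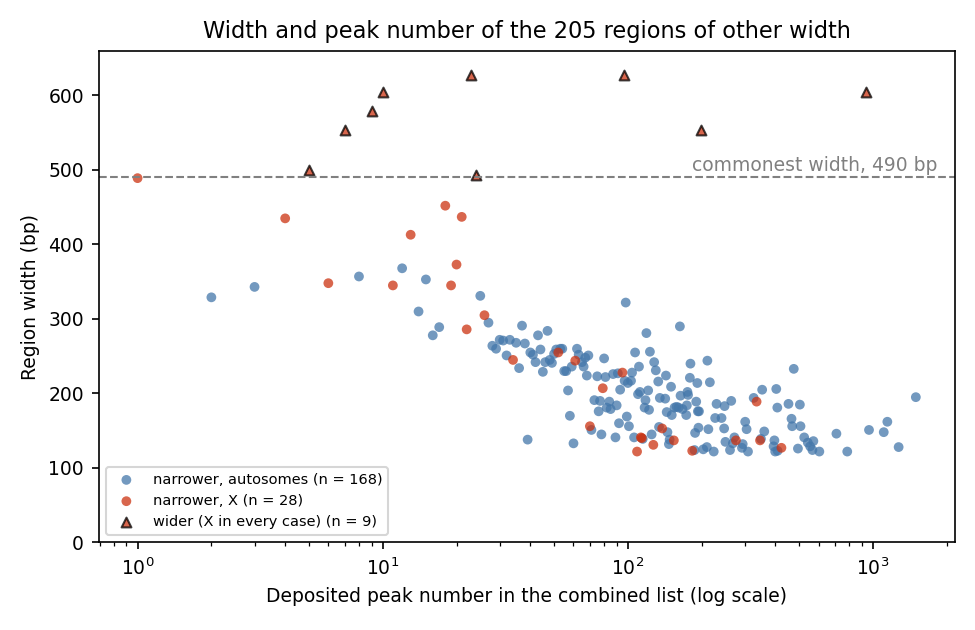
Width in bp (vertical axis) against deposited peak number (horizontal axis, log scale) for the 205 regions of other width; circles are narrower regions on autosomes (blue) or X (red), triangles are wider regions. Widths fall from 489 bp at number 1 toward a floor of 122 bp, and each of these 205 regions that is wider than 368 bp is on X.

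The 5 best narrower regions show the range of widths at the top of the order. The first region of the whole list, on X at 6296268 to 6296756, was 489 bp wide, 1 bp under the commonest width. Its counterparts were 421 bp wide in replicate 1, where it was number 1, and 472 bp in replicate 2, where it was number 3. Number 2, on II at 10563358 to 10563686, was 329 bp wide, with counterparts of 288 and 307 bp in replicates 1 and 2. Number 3, on III at 3867400 to 3867742, was 343 bp wide, against 286 and 311 bp. Number 4, on X at 13700576 to 13701010, was 435 bp wide, against 370 and 416 bp. Number 6, on X at 806513 to 806860, was 348 bp wide, against 287 and 298 bp. In these 5 regions the combined width exceeded both replicate widths and the replicate 2 width exceeded that of replicate 1. At the other end, number 1272 on IV at 3384644 to 3384771 was 128 bp wide, and number 1495 on II at 5346418 to 5346612 was 195 bp wide. Both had counterparts of the commonest width in each replicate list.

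The 9 wider entries described only 6 different intervals, all on X, which held 16.2% of the regions of 490 bp. Of these intervals 3 were each deposited as a pair of lines with the same start and end but different peak numbers. The widest interval, X 11605601 to 11606228, was 628 bp wide and carried numbers 23 and 96. The next, X 8036057 to 8036661, was 605 bp wide and carried numbers 10 and 932. The remaining repeated interval, X 2996844 to 2997396, was 553 bp wide and carried numbers 7 and 198. These are the only 6 entries of the combined list that share both boundaries with another. The intervals listed once were X 14525491 to 14526069 (579 bp, number 9), X 11093859 to 11094358 (500 bp, number 5) and X 16056265 to 16056757 (493 bp, number 24). The last is the wider region nearest the commonest width, as number 1 is the nearest narrower one.

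The replicate lists had more than 1 entry at 5 of the 6 wider intervals. At the interval numbered 23 and 96, replicate 1 held the same 594 bp region under numbers 20 and 90. Replicate 2 held a 436 bp region numbered 23 there and an overlapping 470 bp region numbered 352. At the interval numbered 10 and 932, replicate 1 had regions of 431 bp (number 15) and 481 bp (number 6001) with a common start, and replicate 2 had a 552 bp region under numbers 11 and 748. The pair at 7 and 198 was matched by replicate 1 regions of 452 bp (number 2) and 481 bp (number 150), and by a 491 bp region of replicate 2 under numbers 14 and 169. In the 579 bp interval, replicate 2 held a 565 bp region under numbers 6 and 1407, and replicate 1 a single region of 400 bp with number 12. The 500 bp interval had a 400 bp region (number 7) and a 464 bp region (number 4528) in replicate 1, and 1 region of 445 bp (number 4) in replicate 2. Only the 493 bp interval had a single region in each list, of 442 bp (number 22) and 450 bp (number 27). The best-ranked replicate region lay inside the combined interval in all 6 cases, in both replicates, and was 34 to 179 bp shorter in replicate 1 and 14 to 192 bp shorter in replicate 2.

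**Figure D3:**
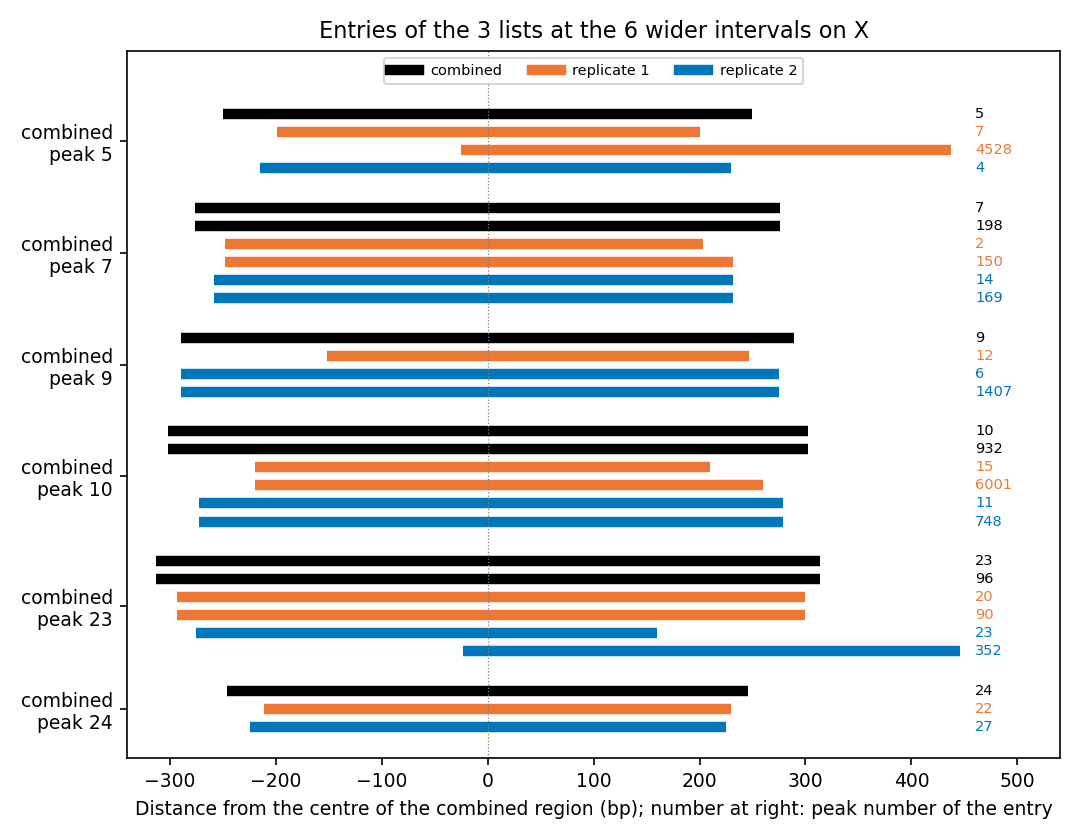
Entries of the combined list (black), replicate 1 (orange) and replicate 2 (blue) at the 6 wider intervals, drawn to scale as the distance in bp from the centre of the combined interval; the number at the right is the peak number of each entry. Repeated combined entries appear at 3 of the 6 intervals, and the lower-ranked replicate regions at numbers 4528 and 352 extend past the combined boundary.

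Repeated lines occurred in the replicate lists too, and also only among regions of other width on X. Replicate 1 had 1 such interval and replicate 2 had 4. The fourth interval of replicate 2, X 4209032 to 4209450, was 419 bp wide under numbers 15 and 3822 and overlapped the 452 bp combined region numbered 18, which is listed once.

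Among regions of other width, the widest lay on X in all 3 lists. Regions of the commonest width, which also lie on autosomes, are left out of this comparison. With repeated entries counted once, the 12 widest of the 202 distinct regions of other width lay on X and were at least 373 bp wide, and the widest autosomal one, on IV with number 12, was 368 bp wide. In replicate 1, the 15 widest of 89 nuclear regions of other width lay on X, down to 305 bp, before an autosomal region of 297 bp. In replicate 2, the 11 widest of 117 lay on X, down to 363 bp, before an autosomal region of 330 bp. Among the 25 widest, X held 16 in the combined list, 18 in replicate 1 and 14 in replicate 2. This comparison was made after the widths had been seen, and the 3 lists are not independent. The X share of the best ranks and the widths there move together, and their parts were not tested apart.

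Over the whole class, narrower regions on X had a median width of 236 bp (141 to 345, n = 28) and those on autosomes 192 bp (181 to 206, n = 168), with overlapping intervals. Narrower X regions among the first 50 had a median of 360.5 bp (305 to 437, n = 12), against 269.5 bp (253 to 289, n = 32) on autosomes. The X regions there had smaller peak numbers as well, with a median of 18.5 against 34. Between numbers 51 and 200 the X median was 147 bp (131 to 228, n = 12) and the autosomal median 198 bp (184 to 216, n = 85), and the X interval contained the autosomal one. Above number 200 the medians were 137 bp (n = 4) and 148 bp (n = 51). In the replicate lists, 47 of the first 50 nuclear entries of each had a width other than the commonest. Their median width in replicate 1 was 360 bp (range 172 to 594, n = 19) on X and 213 bp (range 157 to 297, n = 28) on autosomes. In replicate 2 it was 395 bp (range 190 to 565, n = 18) on X and 229 bp (range 135 to 330, n = 29) on autosomes.

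Over the whole class, narrower regions were spread across all 6 chromosomes. Chromosome III held 50 of the 196, or 25.5% (19.6 to 32.2), against 17.4% (15.5 to 19.4) of the regions of 490 bp. Chromosome I held 18.9% (13.7 to 25.1) against 21.4% (19.3 to 23.6), and X held 14.3% (9.71 to 20.0) against 16.2% (14.4 to 18.2). On II, IV and V the shares of narrower regions were 15.8%, 13.8% and 11.7%, against 16.0%, 15.3% and 13.8% of the regions of 490 bp. Seen per chromosome, 16.3% (12.4 to 21.0) of the III regions were narrower, and 10.1% to 11.6% of those on the other chromosomes. The interval of each other chromosome overlapped that of III in this measure. In the best 1679 regions of replicate 1 alone, III held 23.5% (15.0 to 34.0) and X held 23.5% (15.0 to 34.0) of 85 narrower regions, and in those of replicate 2 alone III held 27.4% (19.5 to 36.6) and X 15.9% of 113. The III interval then overlapped that of the commonest width, at 16.8 to 20.7% in replicate 1 and 16.4 to 20.3% in replicate 2. No test was made of the III share in the combined list, which was the only one whose interval lay outside that of the regions of 490 bp. Among regions tied at the highest score the III intervals overlapped, at 25.9% (19.9 to 32.7) of narrower regions and 17.4% (15.0 to 20.0) of regions of 490 bp.

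The higher share on III was not uniform over rank bands. In the second 100 numbers, where both classes are well represented, III held 21.8% (11.8 to 35.0) of 55 narrower regions and 20.5% (9.80 to 35.3) of 44 regions of 490 bp. In the following 200 numbers it held 32.3% (16.7 to 51.4) of 31 narrower regions and 14.2% (9.32 to 20.4) of 169 regions of 490 bp. X held 12.7% (5.27 to 24.5) against 22.7% (11.5 to 37.8) in the first of these bands, and 9.68% (2.04 to 25.8) against 20.1% (14.4 to 27.0) in the second. Each of these pairs of intervals overlaps. Among the first 50, X held 12 of 44 narrower regions, or 27.3% (15.0 to 42.8), and all 6 wider ones. No region of 490 bp stood there for comparison. Above number 400, X held 4.17% (0.105 to 21.1) of 24 narrower regions and 15.4% (13.4 to 17.5) of 1254 regions of 490 bp. When the span of each autosome that holds regions in any list was divided into 3 equal parts, the central one held 36.3% (29.0 to 44.1) of narrower regions and 41.5% (38.8 to 44.3) of regions of 490 bp.

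**Figure D4:**
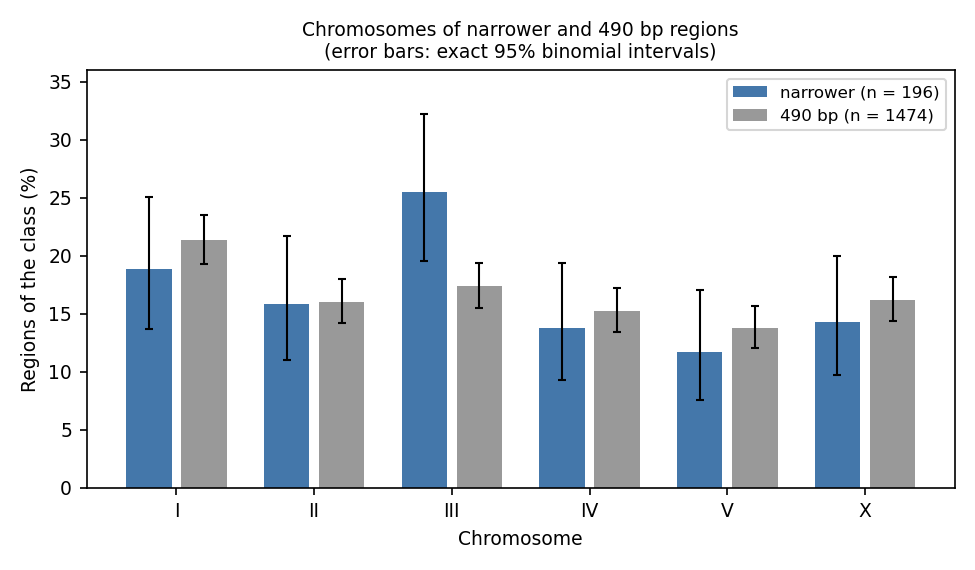
Share of narrower regions (blue, n = 196) and of regions of 490 bp (grey, n = 1474) on each chromosome, in % of the class, with exact 95% binomial intervals. Chromosome III holds 25.5% of narrower regions against 17.4% of the regions of 490 bp, and the intervals overlap on the other chromosomes; the 9 wider entries, all on X, are not drawn.

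Almost every region of other width had a counterpart in both samples, defined as an overlap of at least 1 bp. The combined list is built beside the same samples, so this is in part built in. All 196 narrower regions overlapped a replicate 1 region and 195 overlapped a replicate 2 region. The exception was number 117, on V at 10965556 to 10965736, a 181 bp region with a 464 bp counterpart numbered 82 in replicate 1 alone. For regions of 490 bp the shares were 99.3% (98.8 to 99.7) in replicate 1 and 99.7% (99.3 to 99.9) in replicate 2. The counterparts of narrower regions had a median peak number of 132.5 in replicate 1 and 121 in replicate 2, and those of regions of 490 bp had 917.5 and 935.5.

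Other widths tended to recur in the replicate lists at the same places, counted here in either direction. All 9 wider entries had counterparts of other width in both replicates, but none had a best-ranked one above the commonest width in both. Those of numbers 5 and 24 were below the commonest width in both. Number 1, narrower in the combined list, had a counterpart of 472 bp in replicate 2, where the commonest width is 470 bp. Of the narrower combined regions, 80 of 196, or 40.8% (33.9 to 48.0), had a replicate 1 counterpart that was itself off the commonest width. In replicate 2 this held for 110 of 195, or 56.4% (49.1 to 63.5). Of the regions of 490 bp it held for 1 of 1464 in replicate 1 and 5 of 1470 in replicate 2. In the second 100 numbers, the shares were 29.1% (17.6 to 42.9) and 50% (36.1 to 63.9) for narrower regions and 0 of 44 for regions of 490 bp in both replicates, which allows a share of up to 6.82%. Read from the replicates, all 90 nuclear regions of other width in replicate 1 overlapped a combined region of other width, and 120 of the 121 in replicate 2 did. The remaining one was 120 bp wide, with number 183 in replicate 2, and overlapped the 490 bp region numbered 310 on IV at 12391055 to 12391544. Between the samples themselves, 78 of the 90 regions of replicate 1 and 78 of the 121 of replicate 2 had a best-ranked counterpart of other width in the other list, or 86.7% and 64.5%. Over all nuclear regions, other widths made up 1.08% of replicate 1 and 0.954% of replicate 2. Pairing with the smallest peak number can favour other widths, because they made up 47 of the first 50 nuclear entries of each list.

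The narrower regions fell into 4 patterns by the width of their counterparts. In 68 of the 195 with both counterparts, or 34.9% (28.2 to 42.0), the width was off the commonest in both replicates. These had a median width of 260 bp (252 to 272) and a median peak number of 43.5 (33 to 54), and 39 of them were among the first 50. In 73, or 37.4% (30.6 to 44.6), it was off in neither replicate. These were the narrowest, with a median of 145 bp (137 to 154) and a median peak number of 211 (161 to 272), and 1 of them was among the first 50. That region was number 39, on II at 5844736 to 5844873, 138 bp wide, with counterparts of 464 and 470 bp numbered 32 and 46. The width was off in replicate 2 alone in 42 regions and in replicate 1 alone in 12, both with a median of 192 bp. The best-ranked of the 42 was number 27 and the best-ranked of the 12 was number 61.

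Where both lists gave another width, the widths moved together and the combined region was usually the larger. The combined and replicate widths correlated across narrower regions with a Spearman's rho of 0.85 in replicate 1 (n = 80) and 0.84 in replicate 2 (n = 110). The 68 regions off the commonest width in both replicates gave a rho of 0.83 between the replicate widths. The combined region was wider than its replicate 1 counterpart in 80 of 80 cases, by a median of 61.5 bp, and contained it in 79. It was wider than the replicate 2 counterpart in 107 of 110, by a median of 43 bp, and contained it in 105. The commonest widths of the lists differ in the same direction, by 26 and 20 bp. The replicate 2 region was the wider of the pair in 48 of the 68 cases and the narrower in 18, with a median difference of 16.5 bp. Where the counterpart had the commonest width, the arrangement was the opposite one: 115 of 116 narrower regions lay inside their replicate 1 counterpart and 85 of 85 inside that of replicate 2. Width itself enters this count, because each of these regions was narrower than its counterpart.

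**Figure D5:**
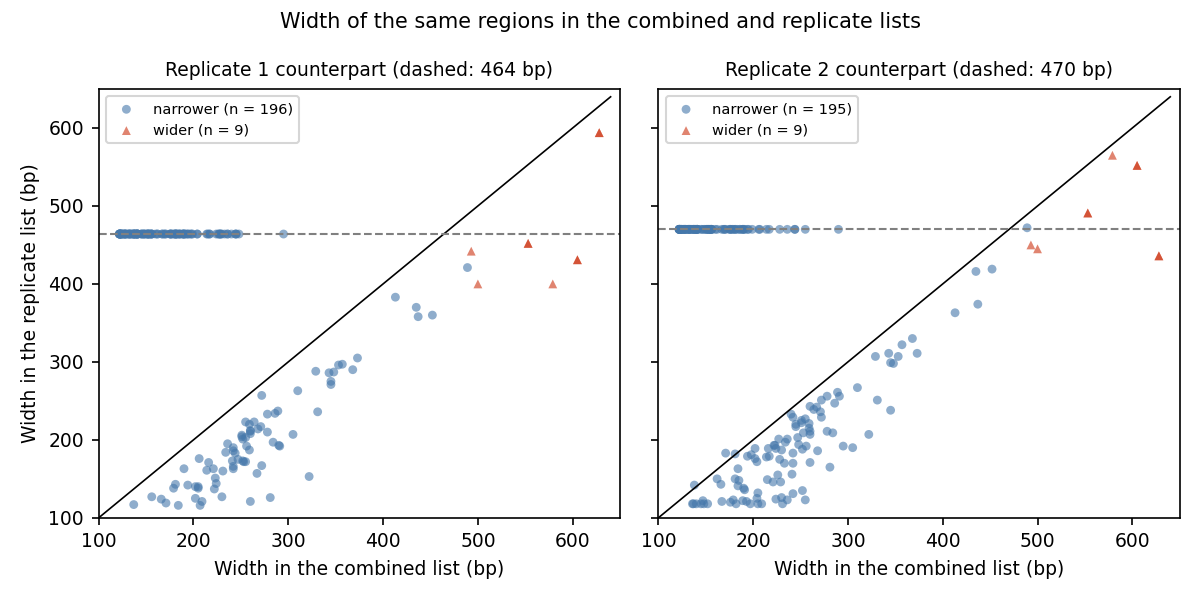
Width of each region of other width in the combined list (horizontal axis, bp) against the width of its counterpart in replicate 1 (left) and replicate 2 (right), in bp; the black line marks equal widths and the dashed line the commonest width of the replicate list. Points below the black line are replicate regions narrower than the combined one (80 of 80 in replicate 1 and 107 of 110 in replicate 2 among narrower regions of other width in both), and the row of points at the dashed line holds the 116 and 85 narrower regions whose counterpart has the commonest width.

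The positions given by the replicate lists were closer for narrower regions. The midpoints of the replicate 1 and replicate 2 counterparts lay a median of 12 bp apart (9.5 to 14, n = 195) for narrower regions and 26.5 bp apart (24 to 29, n = 1460) for regions of 490 bp. The distance also varied with rank: the medians were 16 and 21 bp in the second 100 numbers, 14 and 22 bp in the following 200, and 18 and 28 bp above 400. The quartiles of the classes overlapped in each of these bands, at 5.38 to 39.1 and 5.75 to 36.8 bp in the second 100 numbers. Width enters these distances too, because a wider region can overlap counterparts farther from its centre. For the 9 wider entries the median was 9.5 bp (8.5 to 61), with 61 bp at the 628 bp interval and 54.5 bp at the 579 bp interval. The 3 repeated intervals entered this median once per line, so it rests on only 6 different intervals.

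Few narrower regions overlapped another combined region. A neighbour overlapped 7 of the 196, or 3.57% (1.45 to 7.22), and 72 of the 1474 regions of 490 bp, or 4.88% (3.84 to 6.11). In the second 100 numbers it was 2 of 55, or 3.64% (0.443 to 12.5), against 7 of 44, or 15.9% (6.64 to 30.1). Width itself enters such a count, so the classes are not matched in it. In each of the 7 cases the neighbour was a region of 490 bp with a larger peak number, and the overlap was 84 to 170 bp. The 4 such pairs that began among the first 100 were number 34 on X at 16929527 to 16929771 with number 967, number 39 on II with number 235, number 49 on III at 8801926 to 8802166 with number 746, and number 70 on X at 16612346 to 16612501 with number 1359. Number 746 was the only 490 bp region whose best-ranked counterpart was off the commonest width in both samples, at 173 and 156 bp, and these are the regions numbered 60 and 49 that also pair with number 49 of the combined list.

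The distance to the nearest other combined midpoint had a median of 12388 bp (9650 to 15823) for narrower regions and 15262 bp (13053 to 16604) for regions of 490 bp, with overlapping intervals. The median for wider entries was 0, because 6 of the 9 are repeated lines.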

How the data were processed

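Regions came from anti-GFP ChIP-seq of strain OP228 embryos as lists for 2 ChIP samples and 1 combined list; the 2 input samples have no list analysed here. Each deposited line gives first and last base, the authors' score and a numbered peak name, on WormBase WS220, with SPP and IDR named in the source field, per the file headers. Not given in the sources used here are the scale of the deposited score, the aligner, thresholds, tool versions and the way replicates were combined. Width was end minus start plus 1, and the commonest width was computed per list. A counterpart was a replicate region overlapping by at least 1 bp, the one with the smallest peak number where several did. Shares carry exact Clopper-Pearson 95% intervals and medians order-statistic intervals; a count of 0 was given a limit of 3 counts. No test was made. Python 3.11.15, numpy 2.4.6, pandas 2.3.3, scipy 1.17.1 and matplotlib 3.10.9 were used, and the scripts were tested on simulated data.

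Regions named were, per class, the first 5 and last 2 by peak number, the 3 narrowest and 3 widest, those next to 490 bp, members lacking a counterpart, and overlapping pairs reaching the first 100. Other regions named were chosen after their values were seen. The members and lists were chosen with earlier results of these data known. Genes and sequences on WS220 were not analysed here.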

Additional observations from a re-analysis of the deposited data

How the results depend on the processing

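Over 45 results and 189 alternatives, 158 stayed close to the reported value and 31 did not, judged for counts of regions by a factor of 1.5 and for shares and medians by the reported 95% interval. Leaving out 1 replicate means taking the best 1679 regions of the other list, classed against its own commonest width. Narrower regions then numbered 85 to 113, with a median peak number of 47 to 69, made up 66 to 76% of the first 100, and had 9.41 to 14.2% on II and 15.9 to 23.5% on X. Wider regions numbered 3 to 7 and made up 2 to 4% of the first 100. Regions of the commonest width made up 20 to 32% of the first 100, with a median peak number of 885 to 909. The upper X share and the lower II share came from replicate 1 alone. Requiring overlap of 50% of both regions, which a region under 50% of its counterpart's width cannot reach, left counterparts for 43.9% of narrower regions in replicate 1 and 58.2% in replicate 2. Of these, 89.5% and 95.6% were of other width, and the midpoint distance was 7 bp in both. The share of regions of 490 bp with a counterpart of other width was then 0 in both replicates. It was also 0 in replicate 1 with midpoints within 200 bp or the nearest midpoint paired, and 0.068% in replicate 2 with the latter. No narrower region (0%) overlapped another combined region by 50% of both. Counting identical lines once left 0% of wider regions overlapping another and a nearest distance of 35329 bp. Leaving out overlapping entries left 3 wider regions and a nearest distance of 16773 bp for regions of 490 bp. With the highest score only, the median peak number at 490 bp was 658. As a separate alternative, 97.5% of all regions of 490 bp had a counterpart in the better 50% of replicate 1 entries. No paired analysis was possible because the inputs, numbered like the ChIP samples, had no regions analysed here. Depth is unknown, and what set the widths was not tested.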

Other observations

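Mitochondrial DNA held regions of other width in the replicate lists, while each of the 1679 regions of the combined list is nuclear, so it holds no mitochondrial region of any width. In replicate 1, 1 of 8 mitochondrial regions was off the commonest width, at 361 bp with peak number 1125, starting at the first base of the molecule. In replicate 2, 2 of 16 were, at 228 bp (13016 to 13243, number 21) and 205 bp (13635 to 13839, number 3641).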
